A study of Homo sapiens with 16 samples.

Results

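The genes of cholesterol and fatty acid synthesis were followed in HCT116 cells, an established line from a human colon cancer, after G9a had been targeted with a drug or with a small interfering RNA (siRNA). The module holds 37 of the 63652 genes in the deposited tables. Its genes were chosen by name from knowledge of the pathways, with earlier results of these data known. Of these, 35 were abundant enough to be tested among 12846 genes. G9a, encoded by EHMT2, methylates histone H3 at the H3K9 position, a mark found on silent chromatin, and the title of the series is about this mark and coordinated transcription. One group of libraries came from cells given the G9a inhibitor BIX 01294 trihydrochloride hydrate at 0.5 µM for 72 h, and its controls are labelled as controls for the inhibitor. The other treated group came from cells transfected with 10 nM of G9a siRNA in a lipid reagent (Lipofectamine RNAiMAX) and kept for 72 h, and its controls are labelled as controls for the siRNA. The sources used here do not say what either control was given. Each of the 4 groups holds 2 libraries, each sequenced in 2 runs that were averaged, so that n = 2. The labels do not tie the libraries of a group to separate cultures. The p-values therefore measure the spread between these libraries and no more, and that spread may be technical. All libraries come from 1 cell line.

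The mevalonate pathway joins acetyl-CoA units into isoprenoid building blocks, which are condensed to squalene, closed into a ring and trimmed stepwise to cholesterol. Fatty acid synthesis starts from the same acetyl-CoA, which is carboxylated, extended to palmitate, then elongated, desaturated and activated as acyl-CoA. The transcription factors SREBP-1 and SREBP-2, encoded by SREBF1 and SREBF2, switch on most of these genes when the membrane of the endoplasmic reticulum is poor in sterol, and INSIG proteins hold them back when it is rich. Tumour cells often run both pathways at a high rate to build membranes.

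Levels are given as FPKM (mapped fragments relative to transcript length and to the library total), scaled between libraries by median-of-ratios factors. Differences are of log2(FPKM + 1), each with the standard error from limma, a scale that understates the change of low genes. A gene is called where limma's p, adjusted over all genes tested by the method of Benjamini and Hochberg, is under 0.05. The siRNA libraries carried 4.68 and 4.54 FPKM of EHMT2 against 15.9 and 17.8 in their controls, a difference of -1.67 ± 0.09 (limma adjusted p = 0.000268). The inhibitor acts on the protein, and EHMT2 stood at 19.7 and 18.9 FPKM with it, beside 24.7 and 21.0 in its controls (adjusted p = 0.0827). Across all genes, both inhibitor control libraries stood apart: the pair correlated at 0.993, whereas each of them correlated at 0.957 to 0.974 with the remaining libraries, and those 6 at 0.985 to 0.995 among themselves. Their 28S ribosomal RNA (RNA28S5) was 210.2 and 40.8 FPKM against 1045 to 18920 elsewhere, and the mitochondrial MT-ND1 was 309.5 and 261.9 against 51.7 to 85.8. Of 8 epithelial markers, 6 had a mean of at least 1 FPKM. The summed level of the 8 was 756.4 to 764.5 FPKM in the inhibitor controls and 636 to 715.1 in the other libraries. EPCAM, CDH1, KRT8 and KRT18 were higher in both inhibitor controls than in all other libraries, and CLDN4 overlapped them. KRT19 went the other way, at 206.1 and 212.5 FPKM against 229.9 to 252. Of 9 fibroblast markers, 1 (COL1A1) reached a mean of 1, LUM and FAP were listed at 0 in every library, and the sums were 2.66 to 3.76 against 1.75 to 2.81. The part of these differences in the results on the inhibitor was not tested. Inhibitor counts are therefore given with the inhibitor control as reference, as labelled, and with the siRNA control in its place. For single genes the difference against the siRNA control is given for some only.

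Since SREBP proteins bind a sterol regulatory element next to binding sites of general factors, the promoters of the members were searched for 4 motifs. The windows run from 250 bases before to 50 bases after each start site in RefSeq (GRCh38.p14), and 34 of the 37 members had an entry. The element written TCACNCCAC, searched on both strands, was present in 3 of 34 members (8.82%), namely SREBF2, MID1IP1 and ACSL1, and in 1.38% of the 8593 tested genes with an entry. The CCAAT box was present in 26 members (76.5%) against 43.8% of those genes, the GC box GGGCGG in 30 (88.2%) against 79.3%, and the E-box CACGTG in 4 (11.8%) against 13.1%. A gene with several start sites had several windows, which was the case for 29.4% of the members and 29.5% of the genes tested. A match is a description of letters in a window and not a binding site. The stretches below show SREBF2 and MID1IP1, which hold the sterol element, beside STARD4 and ACSL5, the members called after the siRNA. Capitals mark matches to any of the 4 motifs, on either strand.
SREBF2: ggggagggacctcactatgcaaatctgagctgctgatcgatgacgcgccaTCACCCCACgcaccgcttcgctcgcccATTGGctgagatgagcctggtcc
MID1IP1: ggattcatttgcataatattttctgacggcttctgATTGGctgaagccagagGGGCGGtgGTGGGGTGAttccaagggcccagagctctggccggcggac
STARD4: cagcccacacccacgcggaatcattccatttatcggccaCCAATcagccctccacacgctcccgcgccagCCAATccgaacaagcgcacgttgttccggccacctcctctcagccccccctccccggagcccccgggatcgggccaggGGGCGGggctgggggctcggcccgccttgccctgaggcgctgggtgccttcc
ACSL5: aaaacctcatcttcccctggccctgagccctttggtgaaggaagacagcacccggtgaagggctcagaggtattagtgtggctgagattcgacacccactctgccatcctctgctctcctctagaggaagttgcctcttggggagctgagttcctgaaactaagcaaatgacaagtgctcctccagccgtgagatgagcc

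The SREBF2 stretch is chr22:41832922-41833021 on the plus strand, and it holds the sterol element followed by a CCAAT box read from the other strand. The MID1IP1 stretch is chrX:38801359-38801458 on the plus strand, with an inverted CCAAT box, a GC box and the reverse complement of the sterol element. In STARD4, at chr5:111512536-111512735 on the minus strand, CCAAT occurs 2 times and the GC box once. The ACSL5 stretch, at chr10:112375068-112375267 on the plus strand, lies before the first of its 2 listed start sites and holds none of the 4 motifs.

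With the inhibitor control as reference, 21 of the 35 members were called in the inhibitor libraries, 9 higher and 12 lower, where 36.5% of all genes tested were called. Most members stood above the middle level of the genes tested, from percentile 6.92 for PMVK to 97.2 for FDPS in the siRNA controls. The shares over all genes were not matched for level. The median difference was -0.095 over the members and 0.009 over all genes. Both directions occurred among the mevalonate, sterol and fatty acid genes. With the siRNA, 2 of 35 members were called, ACSL5 and STARD4, both higher, where 2.13% of all genes were called. An unadjusted p under 0.05 was reached by 8 members (22.9%) and by 20.8% of all genes. The median over the members was 0.054, and over all genes -0.010. In bulk RNA, fewer cells of a kind and less RNA per cell cannot be told apart.

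**Figure D1:**
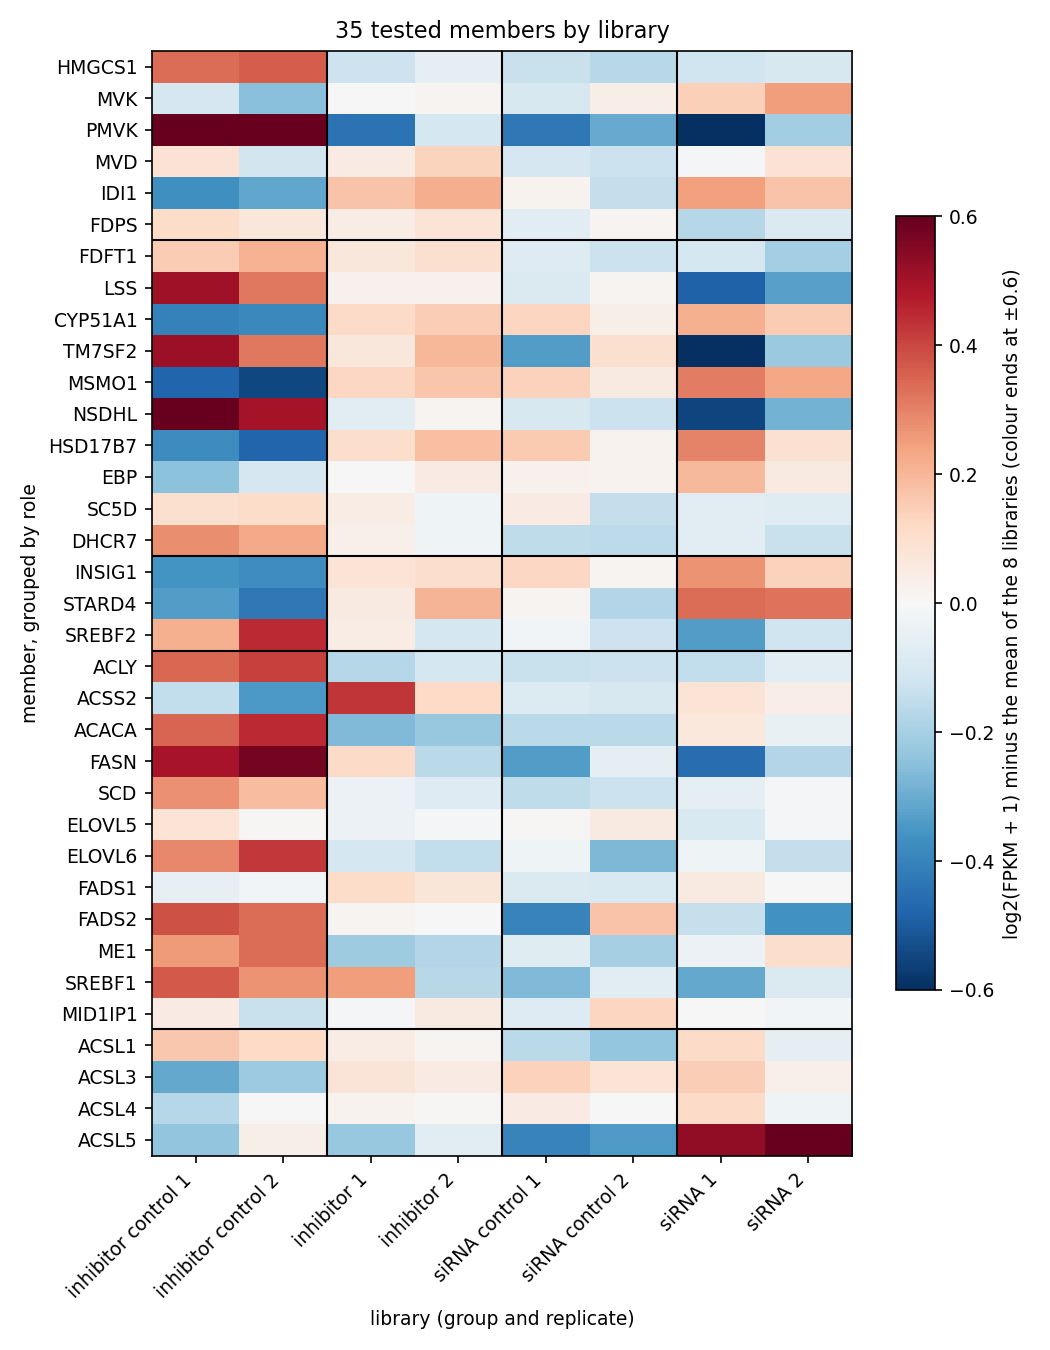
Each row is 1 of the 35 tested members, grouped by role between black lines, and each column is 1 library. Colour gives log2(FPKM + 1) minus the mean of the 8 libraries; the 2 inhibitor control columns on the left lie outside the range of the other 6 libraries for 28 members, 18 on the high side and 10 on the low side.

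The plot of members by library shows where the spread lies. Both inhibitor controls were above the other 6 libraries for 18 members and below them for 10, and for 7 members they were not both outside. Among all genes tested the counts were 3319 above and 3314 below, so that 51.6% had both inhibitor controls outside the range of the rest. Taking the siRNA control against the inhibitor control, 24 members were called, 8 higher and 16 lower, where 38.3% of all genes were called. The median difference was -0.272 over the members and 0.006 over all genes. On the FPKM as deposited, without scaling between libraries, 3 members were higher and 17 lower. In that setting 3598 of the 12846 genes tested were called, and the median over all genes was -0.108. Taking the inhibitor against the siRNA control, limma called none of the 35 members, where 0.0389% of all genes were called (5 genes). Here an unadjusted p under 0.05 was reached by 7 members, 20% of those tested, and by 12.4% of all genes. In that comparison the members' differences ran from -0.085 to 0.362, with a median of 0.064 beside -0.006 over all genes. These comparisons share libraries with those above and are not independent of them.

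In the mevalonate pathway, 1 of 6 members was called higher with the inhibitor and 2 were called lower, and none was called with the siRNA. Over all genes tested, 36.5% were called with the inhibitor and 2.13% with the siRNA. IDI1, which interconverts the isoprenoid building blocks (chromosome 10, 1085848 to 1095110 in hg19), measured 74.3 and 77.4 FPKM in the inhibitor controls, 108.3 and 111.9 with the inhibitor, 97.6 and 87.1 in the siRNA controls, and 114.2 and 108.4 with the siRNA. It was higher with the inhibitor by 0.53 ± 0.06 (limma adjusted p = 0.000398). Both treated groups lay above their own controls with no overlap, and with the siRNA the difference was 0.27 ± 0.06 (adjusted p = 0.0632). The inhibitor libraries differed from the siRNA controls by 0.25 ± 0.06 (adjusted p = 0.197). HMGCS1, which makes the HMG-CoA from which mevalonate is formed (chromosome 5, 43289497 to 43313614), was at 79.1 and 80.6 FPKM in the 2 inhibitor control libraries and between 55.5 and 60.0 in the other 6 libraries. The inhibitor libraries held 57.3 and 60.0, the siRNA controls 56.8 and 55.5, and the siRNA libraries 57.3 and 58.3. Its difference was -0.44 ± 0.05 with the inhibitor (adjusted p = 0.000325) and 0.04 ± 0.05 with the siRNA (adjusted p = 0.689). PMVK, the phosphomevalonate kinase (chromosome 1, 154897210 to 154909467), had the largest difference of any member tested in this comparison: it measured 5.54 and 5.10 FPKM in the inhibitor controls, 1.25 and 1.84 with the inhibitor, 1.27 and 1.48 in the siRNA controls, and 1.01 and 1.64 with the siRNA. Only the inhibitor controls were high. The difference was -1.32 ± 0.17 against the inhibitor control (adjusted p = 0.000569) and 0.09 ± 0.17 against the siRNA control, with a 95% interval of -0.29 to 0.48. PMVK was also among the least precise members, with deposited confidence intervals that reached 15.8% to 64.6% above the value. MVK, MVD and FDPS, the remaining members of this pathway, were not called in either treatment. Their differences lay between -0.03 and 0.19 for the inhibitor and between -0.11 and 0.23 for the siRNA. The summed level of the 6 genes was 406.4 and 396.3 FPKM in the inhibitor controls, 406.3 and 421 with the inhibitor, 375.9 and 374.5 in the siRNA controls, and 388.3 and 398.2 with the siRNA.

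From squalene to cholesterol, 4 of 10 tested members were called higher with the inhibitor and 3 lower, and none was called with the siRNA. Among all genes the shares called were 36.5% and 2.13%. MSMO1, which removes the methyl groups at one position of the sterol ring (chromosome 4, 166248775 to 166264312), measured 57.5 and 54.7 FPKM in the inhibitor controls, 87.5 and 90.1 with the inhibitor, 88.4 and 83.5 in the siRNA controls, and 99.5 and 94.5 with the siRNA. CYP51A1, the lanosterol demethylase that acts earlier (chromosome 7, 91741465 to 91772266), was at 88.0 and 89.1, 126.8 and 129.6, 127.9 and 119.8, and 135.6 and 129.8 FPKM in the same order of groups. HSD17B7, a ketosteroid reductase of the same branch, was at 14.4 and 13.4, 20.5 and 21.6, 21.3 and 19.3, and 23.6 and 20.3 FPKM. All 3 were lowest in the inhibitor controls, and the values of the inhibitor and siRNA control libraries overlapped. Against the inhibitor control MSMO1 was higher by 0.65 ± 0.06 (limma adjusted p = 7.69e-05), CYP51A1 by 0.53 ± 0.05 (adjusted p = 0.000154) and HSD17B7 by 0.57 ± 0.09 (adjusted p = 0.00138). Against the siRNA control the differences were 0.05 ± 0.06, 0.05 ± 0.05 and 0.05 ± 0.09, and the 95% interval of MSMO1 was -0.08 to 0.17. With the siRNA, MSMO1 lay above its controls in both libraries, by 0.17 ± 0.06, which was not called (adjusted p = 0.126). EBP, the isomerase that shifts a double bond of the ring, was at 79.7 and 88.3, 94.8 and 97.9, 96.5 and 96.3, and 108.6 and 98.4 FPKM. Its difference of 0.20 ± 0.07 (adjusted p = 0.0422) was lost in 10 of 18 alternative settings, among them leaving out inhibitor control replicate 1, either inhibitor library or either siRNA control library.

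The 3 members of this branch that were lower with the inhibitor were NSDHL, LSS and DHCR7. NSDHL, which removes a carboxyl group from the sterol ring in the step after MSMO1 (chromosome X, 151999511 to 152038273), measured 18.6 and 17.1 FPKM in the inhibitor controls, 11.3 and 12.0 with the inhibitor, 11 and 10.7 in the siRNA controls, and 7.75 and 9.54 with the siRNA. LSS, which closes oxidosqualene into lanosterol (chromosome 21, 47608055 to 47648738), was at 17.4 and 15.1, 12.2 and 12.2, 11.2 and 12.1, and 8.23 and 9.31 FPKM. For both genes the siRNA libraries were the lowest of the 8 and the inhibitor controls the highest. With the inhibitor NSDHL differed by -0.58 ± 0.10 (limma adjusted p = 0.00218) and LSS by -0.39 ± 0.09 (adjusted p = 0.0112), a call lost without inhibitor control replicate 1 (adjusted p at most 0.0827 over the alternatives) or without either inhibitor library. With the siRNA, NSDHL differed by -0.31 ± 0.10 (adjusted p = 0.129) and LSS by -0.37 ± 0.09 (adjusted p = 0.072), neither of which was called. DHCR7, which makes cholesterol from its dehydro precursor, was at 47.1 and 45.4, 39.4 and 37.9, 34.6 and 34.6, and 36.7 and 35.2 FPKM, with a difference of -0.25 ± 0.06 for the inhibitor (adjusted p = 0.00727). That call was lost without inhibitor control replicate 1 or inhibitor replicate 2. FDFT1, which makes squalene, TM7SF2, a sterol reductase, and SC5D, a sterol desaturase, were not called in either treatment. FDFT1 and TM7SF2 were called lower in the siRNA control than in the inhibitor control, by -0.28 ± 0.05 and -0.53 ± 0.18 (adjusted p = 0.00289 and 0.0401). The TM7SF2 call was lost in 9 of 18 alternative settings, among them leaving out either inhibitor control, either inhibitor library or siRNA control replicate 1, with an adjusted p of at most 0.268 and a difference between -0.75 and -0.32. SQLE, the squalene epoxidase, was listed at 0.38 to 1.14 FPKM and did not reach the mean of 1 needed for a test. Its deposited confidence interval reached 269% above the value in the least precise run.

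The inhibitor libraries had all 3 genes of sterol sensing and transport called, 2 of them higher and 1 lower, where 36.5% of all genes were called. All 3 were also called in the siRNA control against the inhibitor control, where 38.3% of all genes were called. STARD4, which carries cholesterol between membranes (chromosome 5, 110831731 to 110848288), measured 27.5 and 25.7 FPKM in the inhibitor controls, 36.3 and 40.5 with the inhibitor, 35.3 and 30.8 in the siRNA controls, and 44.4 and 44.1 with the siRNA. It was the one member called in both treatments: each treated group lay above its own control, by 0.51 ± 0.08 for the inhibitor (limma adjusted p = 0.00147) and by 0.41 ± 0.08 for the siRNA (adjusted p = 0.0421). The treatment effects differed by 0.10, which was not called. The siRNA call lay close to the threshold and was lost in 14 of 19 settings, with an adjusted p of at most 0.245. These include leaving out any single library other than siRNA control replicate 1, and leaving out both inhibitor controls (adjusted p = 0.054). The inhibitor and siRNA control libraries did not overlap and were apart by 0.21 ± 0.08 (adjusted p = 0.338). INSIG1, which retains SREBP in the endoplasmic reticulum and is itself an SREBP target (chromosome 7, 155089486 to 155101945), measured 38.2 and 37.9 FPKM in the inhibitor controls, 52.3 and 53.1 with the inhibitor, 53.9 and 49.8 in the siRNA controls, and 59.7 and 54.3 with the siRNA. It was higher with the inhibitor by 0.46 ± 0.06 (adjusted p = 0.000772), and by 0.02 ± 0.06 against the siRNA control, where the libraries overlapped. SREBF2, the sterol branch regulator, was at 18.97 and 22.5, 16.7 and 15.0, 16.0 and 14.8, and 12.7 and 14.9 FPKM. Its difference of -0.36 ± 0.11 (adjusted p = 0.0263) was lost without inhibitor control replicate 2 or inhibitor replicate 2, with an adjusted p of at most 0.281 over the settings tried.

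Fatty acid synthesis and desaturation had 1 of 12 tested members called higher with the inhibitor and 6 lower, and none called with the siRNA. The shares over all genes were 36.5% and 2.13%. Between the 2 control groups 7 of these 12 were called, where 38.3% of all genes were called. ACLY, which splits cytosolic citrate into acetyl-CoA (chromosome 17, 40023161 to 40086795), measured 77.3 and 81.0 FPKM in the inhibitor controls, 53.7 and 56.2 with the inhibitor, 55.1 and 55.5 in the siRNA controls, and 54.7 and 57.8 with the siRNA. ACACA, the acetyl-CoA carboxylase that makes malonyl-CoA (chromosome 17, 35441923 to 35766909), was at 29.2 and 31.4, 18.8 and 19.3, 20.2 and 20.2, and 23.8 and 22.0 FPKM. FASN, the fatty acid synthase (chromosome 17, 80036214 to 80056208), was at 43.5 and 45.9, 33.2 and 27.2, 24.0 and 29.3, and 22.0 and 26.9 FPKM. In each of these consecutive steps the inhibitor controls were the high libraries and the other 6 lay below them. Against the inhibitor control ACLY differed by -0.52 ± 0.05 (limma adjusted p = 0.00023), ACACA by -0.65 ± 0.07 (adjusted p = 0.000208) and FASN by -0.56 ± 0.13 (adjusted p = 0.00868). The FASN call was lost without inhibitor replicate 2 (highest adjusted p over the settings 0.087). Against the siRNA control the same inhibitor libraries differed by -0.01 ± 0.05 for ACLY, -0.09 ± 0.07 for ACACA and 0.17 ± 0.13 for FASN, none of them called, and the 95% interval for FASN was -0.11 to 0.46. With the siRNA, ACACA was above its controls in both libraries, by 0.17 ± 0.07 (adjusted p = 0.192).

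ME1, the malic enzyme that supplies NADPH, measured 13.6 and 14.5 FPKM in the inhibitor controls, 9.59 and 9.85 with the inhibitor, 10.7 and 9.69 in the siRNA controls, and 10.97 and 12.2 with the siRNA. ELOVL6, which elongates palmitate, was at 16.8 and 18.6, 12.6 and 12.2, 13.4 and 11.1, and 13.4 and 12.2 FPKM. SCD, the desaturase that makes oleate, was at 134.9 and 126.7, 108.8 and 105.4, 99.97 and 101.7, and 107.4 and 110.5 FPKM. These enzymes around palmitate had the same order, with the inhibitor controls above all other libraries. Their differences with the inhibitor were -0.49 ± 0.09 for ME1 (limma adjusted p = 0.00237), -0.48 ± 0.10 for ELOVL6 (adjusted p = 0.00492) and -0.29 ± 0.05 for SCD (adjusted p = 0.00254). ACSS2, which makes acetyl-CoA from acetate, went the other way and measured 15.1 and 13.0 FPKM in the inhibitor controls, 23.0 and 18.3 with the inhibitor, 15.8 and 15.7 in the siRNA controls, and 17.9 and 17.3 with the siRNA. Here the inhibitor libraries were the highest of the 8. ACSS2 was higher by 0.52 ± 0.11 against the inhibitor control (adjusted p = 0.00536) and by 0.36 ± 0.11, not called, against the siRNA control (adjusted p = 0.248, unadjusted p = 0.00772 by limma). SREBF1, the regulator of this branch, was at 33.5 and 31.2, 30.8 and 22.8, 21.3 and 24.6, and 20.6 and 24.1 FPKM, and its difference of -0.28 ± 0.14 with the inhibitor was not called (adjusted p = 0.141). SREBF1 was called lower in the siRNA control than in the inhibitor control, by -0.48 ± 0.14 (limma adjusted p = 0.0202). That call was lost in 4 of 18 alternative settings. The desaturases FADS1 and FADS2, the elongase ELOVL5 and MID1IP1, which promotes the activity of acetyl-CoA carboxylase, were not called in either treatment. FADS1 and FADS2 overlap in the genome, and FEN1 overlaps FADS2 at 72.6 FPKM against 4.52 for FADS2, so their reads may be shared. THRSP, a relative of MID1IP1, was listed at 0.12 to 0.28 FPKM and was not tested. The summed level of the 13 genes was 438.9 and 434.3 FPKM in the inhibitor controls, 362.4 and 343.6 with the inhibitor, 328.9 and 340.5 in the siRNA controls, and 339.6 and 352.8 with the siRNA.

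Of the 4 acyl-CoA synthetases, which activate long fatty acids for use, 1 was called with each treatment. The share of all genes called was 36.5% with the inhibitor and 2.13% with the siRNA. ACSL5 (chromosome 10, 114133776 to 114188138) measured 1.62 and 2.16 FPKM in the inhibitor controls, 1.63 and 1.95 with the inhibitor, 1.33 and 1.43 in the siRNA controls, and 3.46 and 3.99 with the siRNA. Both siRNA libraries were above all other libraries, and the other groups lay within 1.33 to 2.16. The siRNA difference was 0.99 ± 0.14 (limma adjusted p = 0.0222), a fold of 1.98 on the scale of FPKM + 1, and the inhibitor difference was -0.05 ± 0.14 (adjusted p = 0.824). The effects of the treatments on ACSL5 differed by -1.03 (adjusted p = 0.0145). At these low levels the deposited confidence intervals reached 27.3% to 105% above the value. The siRNA call was lost in 7 of 18 settings, among them leaving out siRNA control replicate 2 or either siRNA library, where the adjusted p was at most 0.141. ACSL5 stayed called without the inhibitor controls (adjusted p = 0.0274). ACSL3, the synthetase with the highest level of the 4, measured 43.5 and 46.4 FPKM in the inhibitor controls, 57.1 and 56.0 with the inhibitor, 59.6 and 57.2 in the siRNA controls, and 60.0 and 55.2 with the siRNA. Its difference was 0.33 ± 0.06 with the inhibitor (adjusted p = 0.00335) and -0.04 ± 0.06 against the siRNA control. ACSL1 and ACSL4 were not called in either treatment, with ACSL1 at 4.96 and 4.29 FPKM with the siRNA and 3.91 and 3.69 in its controls (0.23 ± 0.10, adjusted p = 0.249). ACSL1 was called lower in the siRNA control than in the inhibitor control, by -0.34 ± 0.10 (limma adjusted p = 0.0292). That call was lost in 9 of 17 alternative settings.

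**Figure D2:**
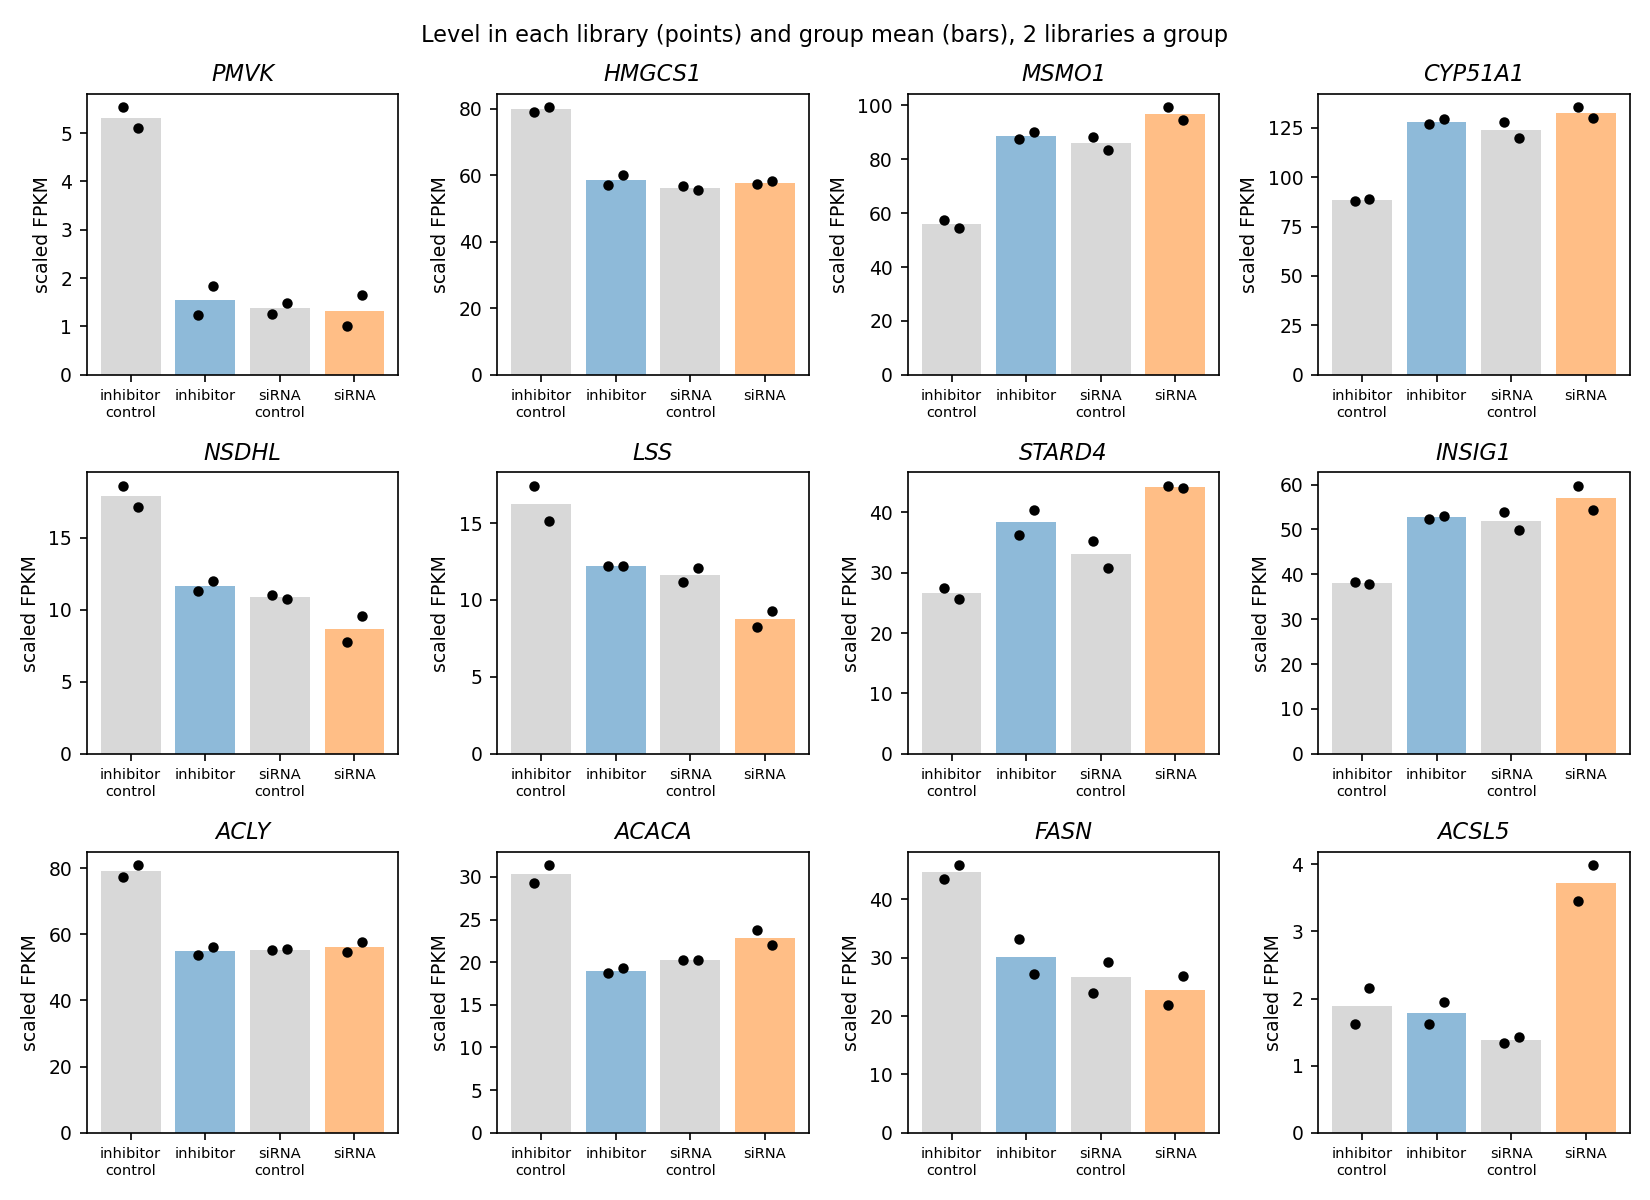
Scaled FPKM of 12 members, with 1 point per library and a bar for the mean of the 2 libraries of each group, on axes that start at 0. Inhibitor, siRNA control and siRNA bars are close to each other for HMGCS1 and ACLY while the inhibitor control bar is higher; for ACSL5 the siRNA bar stands alone, at 3.46 and 3.99 FPKM against 1.33 to 2.16 elsewhere.

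The plot of the 4 comparisons sets the choice of reference side by side. Of the 21 members called against the inhibitor control, none was called against the siRNA control, where 0.0389% of all genes were called. The size of each of their differences against the siRNA control was at most 0.36. The difference between the treatment effects, each taken against its own control, was called for 14 members, 5 higher with the inhibitor and 9 lower, where 11.8% of all genes were called. On the FPKM as deposited none was higher and 4 were lower, where 738 of the 12846 genes tested were called. The median over all genes was 0.039 in that setting. The difference between the treatment effects contains the inhibitor controls and moves with them.

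**Figure D3:**
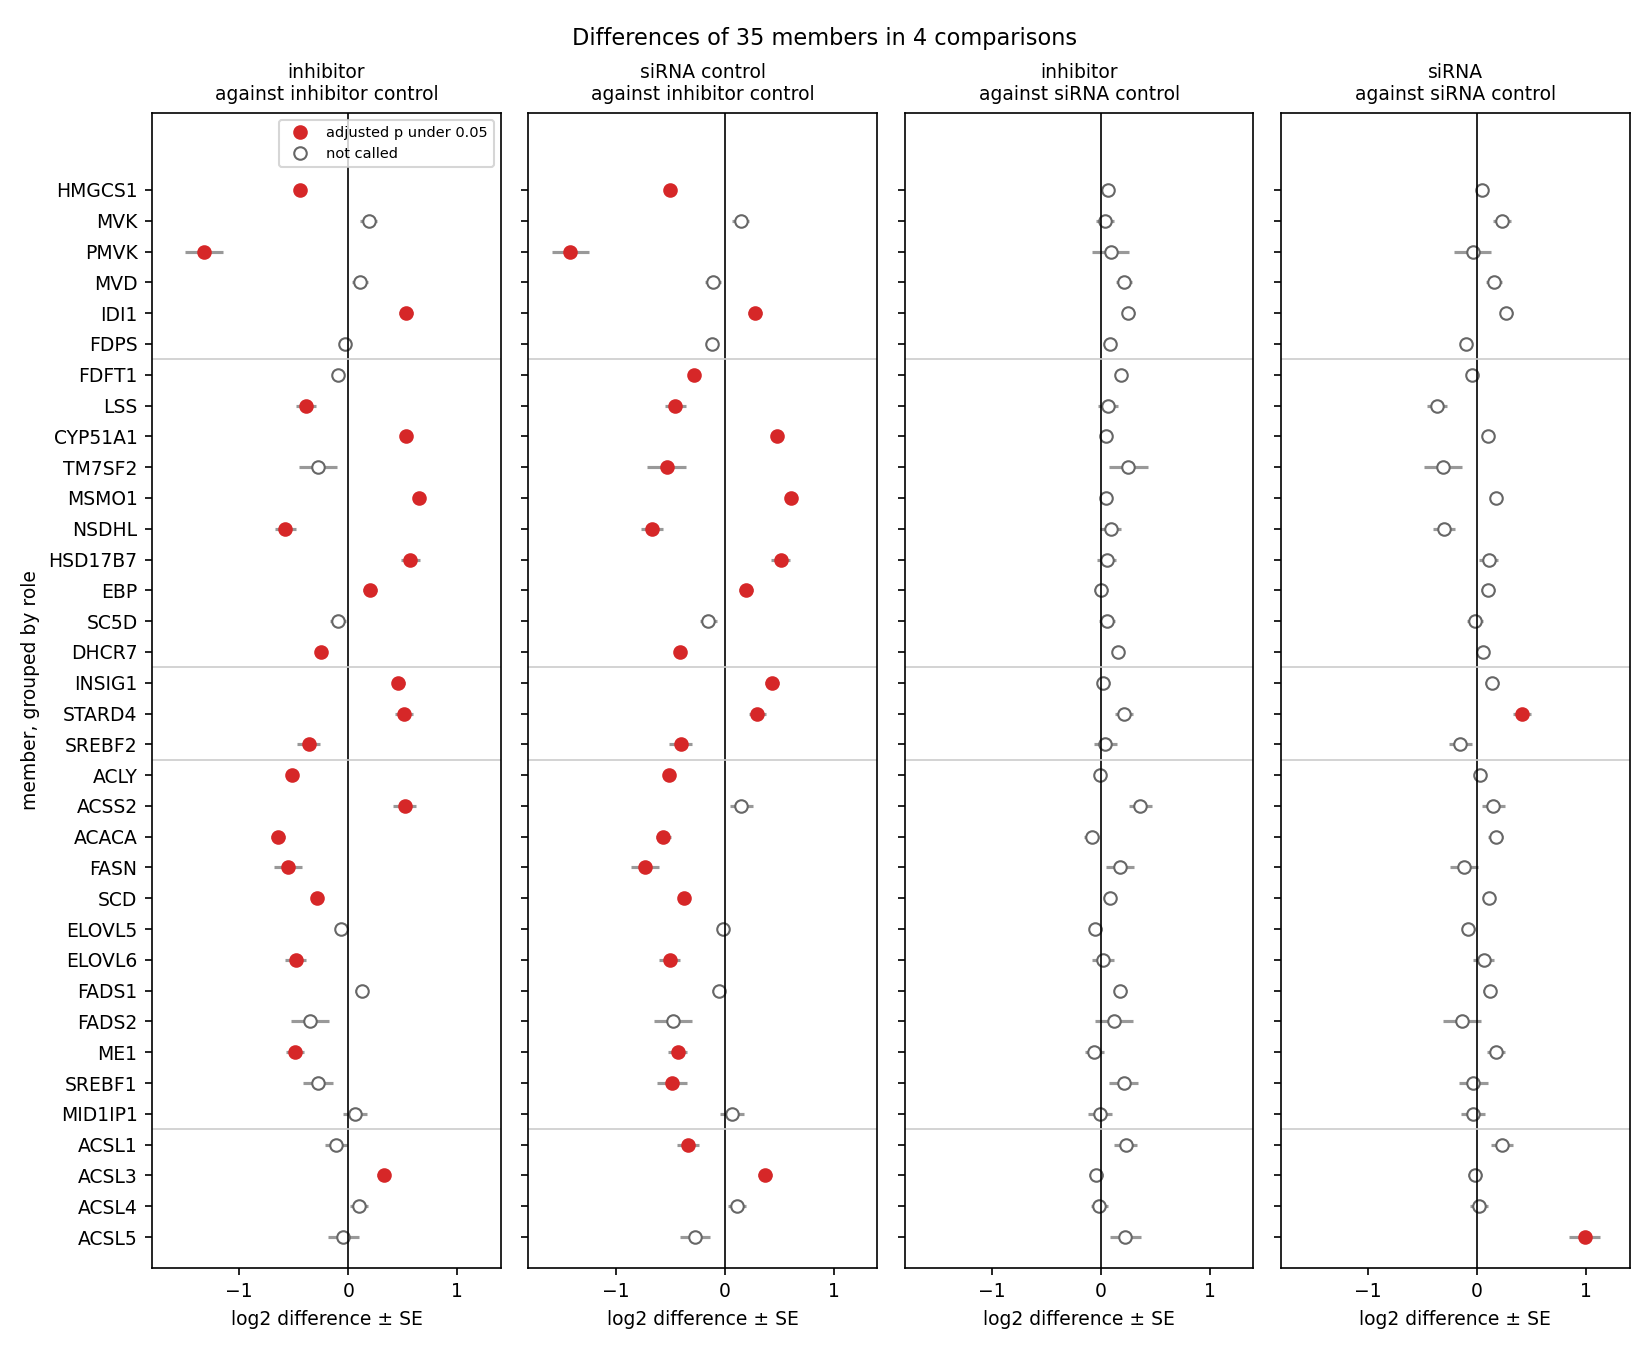
Log2 difference in FPKM + 1 with its standard error (horizontal bars) for each tested member in 4 comparisons; filled points have a limma adjusted p under 0.05. The panels against the inhibitor control hold 21 and 24 filled points, the inhibitor against the siRNA control holds none, and the siRNA against its control holds ACSL5 and STARD4.

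Genes of the neighbouring pathways were counted in the same way, and the shares called with the inhibitor were 40%, 31.6%, 52.2% and 38.5% in the 4 lists in the order below, beside 36.5% of all genes. Of 15 other genes of sterol and isoprenoid synthesis, 2 were called higher with the inhibitor and 4 lower, among them the cytochrome b5 reductase CYB5R3 (-0.73 ± 0.08), the thiolase ACAT2 (0.40 ± 0.05) and FNTA, a subunit of protein prenyltransferases (0.29 ± 0.09). Of 19 genes of sterol regulation and transport, 2 were higher and 4 lower, including MBTPS1, the protease that makes the first cut in SREBP (-0.90 ± 0.08), the oxysterol-binding protein OSBP (-0.87 ± 0.13), ERLIN1 (-0.59 ± 0.11) and TMEM97 (0.42 ± 0.06). Among 23 other genes of fatty acid synthesis and elongation, 7 were higher and 5 lower. Among the lower ones were TECR, which completes each elongation cycle (-1.40 ± 0.10), the NADPH-producing enzyme PGD (-1.34 ± 0.14) and the glucose-sensing factor MLXIPL (-0.67 ± 0.21). Of 26 genes of fatty acid oxidation, 4 were higher and 6 lower, with ACAA1 (-1.39 ± 0.20), HADH (-0.72 ± 0.08), PPARD (-0.72 ± 0.16) and CPT1A (-0.66 ± 0.08) showing the largest differences. With the siRNA, the calls in these lists were IDH1 (0.32 ± 0.06) and PGD (-0.69 ± 0.14) in fatty acid synthesis and ACAD9 (-0.41 ± 0.07) in fatty acid oxidation. PGD and IDH1 provide NADPH, and ACAD9 is a mitochondrial acyl-CoA dehydrogenase. Against the siRNA control, no gene of the 4 lists was called in the inhibitor libraries. For the first gene named in each list, the difference there was 0.03 ± 0.08 (CYB5R3), -0.09 ± 0.08 (MBTPS1), 0.13 ± 0.10 (TECR) and -0.04 ± 0.20 (ACAA1). The medians with the inhibitor were 0.027, -0.161, 0.111 and 0.015 in the order given, beside 0.009 over all genes.

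The base composition of the members was set beside their differences. The 9 called higher with the inhibitor had a median GC content of 41.5% in their longest coding transcript (GENCODE 29), with a range of 34.2% to 54.6%. The 12 called lower had a median of 51.3% and a range of 39.5% to 65.3%, and the 14 not called had a median of 52.6%. These ranges overlap, and the difference between the medians was not tested. In the siRNA control against the inhibitor control the medians were 41.3% and 51.3%. Across the 35 members, Spearman's rho between GC content and the difference was -0.341 for the inhibitor, -0.426 for the siRNA, -0.460 for the siRNA control against the inhibitor control, and 0.316 for the inhibitor against the siRNA control. Across 10890 genes the values were -0.271, -0.261, -0.241 and -0.076. Genes are not independent replicates, and the points of a comparison share their libraries. The part of base composition in the differences was not tested. STARD4 has the lowest GC content of the members, at 34.2%, and ACSL5 has 44.8%.

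**Figure D4:**
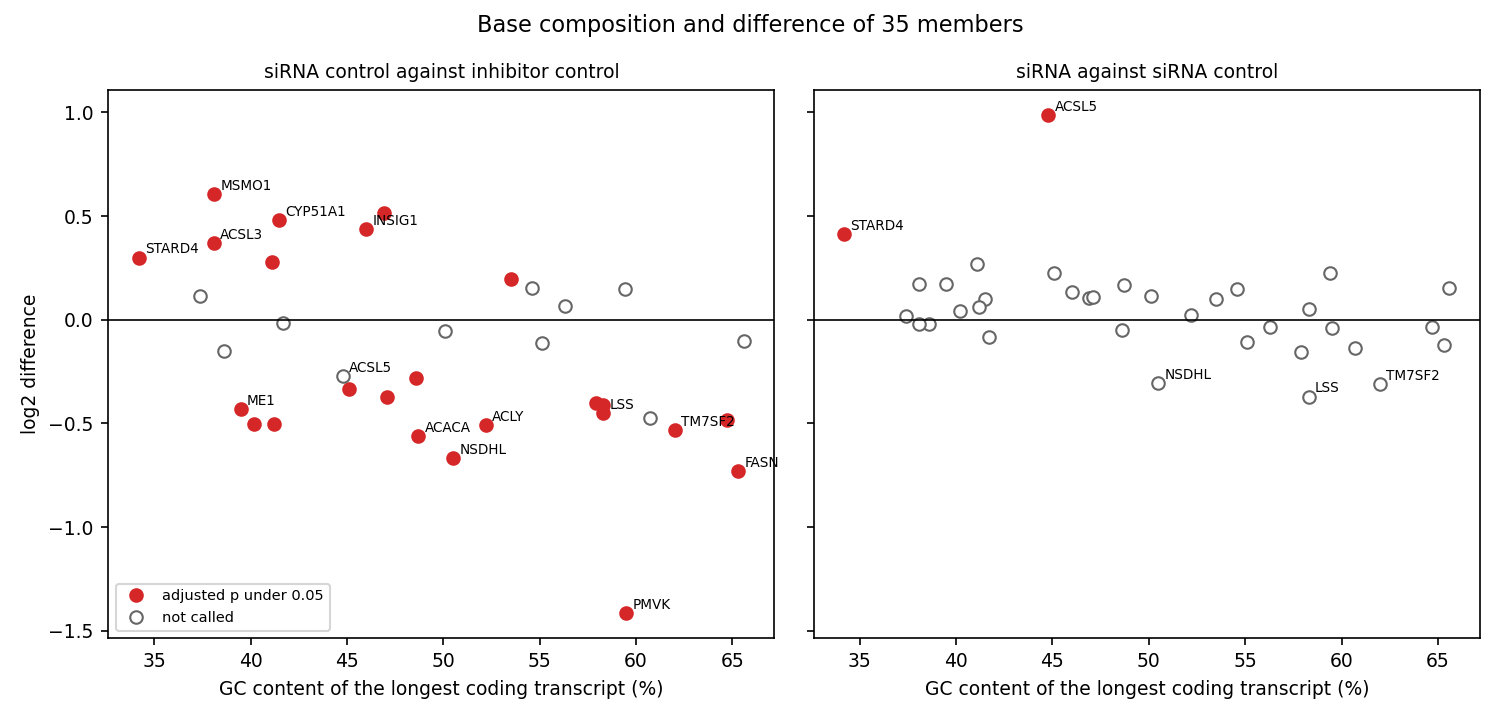
GC content of each member's longest coding transcript in percent against its log2 difference, for the siRNA control against the inhibitor control and for the siRNA against its control; filled points have a limma adjusted p under 0.05. In the first panel the called members above 0 have a median GC content of 41.3% and those below 0 of 51.3%; in the second only STARD4 and ACSL5 are filled.

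Some members share sequence with other genes, and the sources used here do not say whether counting used the strand. SCD overlaps AL139819.1, at a mean of 22.9 FPKM against 112.6 for SCD, and DHCR7 overlaps RP11-660L16.2, at 9.67 against 39.2. MVK overlaps MMAB (19.9 against 18.3 FPKM) and TM7SF2 overlaps VPS51 (32.9 against 5.29 FPKM). Reads of these pairs may not be fully told apart. NSDHL, EBP and ACLY also have entries on alternate sequences, which were listed at 0 in all runs.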

How the data were processed

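Per the labels' protocols, a stranded kit for total RNA and a HiSeq-2000 sequencer were used. The authors deposited FPKM per gene with confidence bounds from Cufflinks, and the submitters' processing notes also name STAR 2.3.0e, SAMtools 0.1.19 and hg19. The sources used here give neither the Cufflinks version and options nor the annotation. Because FPKM is relative to the library total, a change in very abundant RNAs moves every other value. The files hold no counts, and depth is known only in relative terms: judged from genes with 1 implied fragment, it was 0.298 to 1.016 of the first run of siRNA control replicate 1, lowest in inhibitor control replicate 2 and siRNA control replicate 2.

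Rows that repeat a gene were summed, MT-RNR2 was left out as not reliably estimated in any run, and values were averaged over the 2 runs of each library. Scaling used median-of-ratios factors (0.878 to 1.09). Tested genes had a mean of at least 1 FPKM and a locus no shorter than 300 bases. Tests were two-sided and used limma 3.58.1 (R 4.3.3) with a mean-variance trend on log2(FPKM + 1), all 4 groups in 1 fit with 4 residual and 5.04 prior degrees of freedom. The script was tested on simulated data. The members and the other gene lists were chosen with earlier results of these data known. Values in every library are given for members called in either treatment, for those with a log2 difference of at least 0.5 between either treatment and its own control, and for SREBF1, SREBF2 and INSIG1. Of each other list, at most 4 called genes are named by size of difference, and some genes counted in these lists are not reported here by name. Other settings tried concerned the pseudocount, filter, scaling, empirical Bayes step, libraries in the fit, runs, replicate block and each library left out.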

Additional observations from a re-analysis of the deposited data

Results flagged for a closer look

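For 14 members the effect of the inhibitor and that of the siRNA, each against its own control, differed by limma's test of the difference (adjusted p under 0.05 over all genes). The inhibitor effect was lower than the siRNA effect by a log2 difference of -1.283 for PMVK, -1.033 for ACSL5, -0.817 for ACACA, -0.661 for ME1, -0.545 for ELOVL6, -0.541 for ACLY, -0.481 for HMGCS1, -0.396 for SCD and -0.306 for DHCR7. It was higher by 0.327 for INSIG1, 0.347 for ACSL3, 0.429 for CYP51A1, 0.466 for HSD17B7 and 0.481 for MSMO1. For ACSL5 the siRNA libraries were the ones apart from the rest (3.46 and 3.99 FPKM against 1.33 to 2.16). For the other 13 members both inhibitor controls lay outside the range of the other 6 libraries. The same was true of 51.6% of all genes tested, and the 14 members were called on a difference that contains the inhibitor controls. The part of the inhibitor controls in these differences was not tested. ACACA kept its call in all 17 alternatives run for it, ACLY, HMGCS1 and MSMO1 in 16 of 17, ME1 and CYP51A1 in 15, SCD in 14, PMVK in 13 of 16 and ACSL5 in 11 of 16. HSD17B7 kept it in 7 of 17, ELOVL6, INSIG1 and ACSL3 in 6 of 17, and DHCR7 in 4 of 17. The value for ELOVL6 ran from -0.83 to -0.256 over them.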

How the results depend on the processing

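Against the inhibitor control, 21 members were called with the inhibitor, 16 to 22 under the other settings and 16 to 21 with 1 library left out. For the siRNA control against the inhibitor control the count was 24, then 17 to 24 and 19 to 24, and for the inhibitor against the siRNA control it was 0 in every setting run. The 2 members called with the siRNA became 0 without a filter on low values, 0 with only the libraries of the 2 groups compared, 0 with either run alone, 1 on the FPKM as deposited, and 1 without both inhibitor control libraries, a setting chosen after seeing the data. The range was 0 to 3 with 1 library left out. The 14 members whose effects differed between the treatments became 4 without a filter, 4 on the FPKM as deposited, 6 with the first run alone and 9 with the second, and 7 to 12 with 1 library left out. Over all genes, the other settings called 2996 to 4861 for the inhibitor and 3176 to 4913 between the controls. They called 5 to 587 for the siRNA and 0 to 32 for the inhibitor against the siRNA control. For the difference of effects 738 were called on the FPKM as deposited, 526 with the first run alone and 717 with the second. The number of genes tested varied with the filter and the runs used. No called member reversed its direction under any setting run, and the cause of the lost calls was not tested. Single-run calls lost included ELOVL6 with the first run, and calls lost on the FPKM as deposited included ACSL3 and SCD, all for the inhibitor. Without scaling between libraries, the median of all genes was -0.108 for the siRNA control against the inhibitor control. With scaling it was 0.006. Counts over all genes moved too: 4686 for the inhibitor to 2668 without inhibitor replicate 2, 4916 between the controls to 3176 without a filter, 1520 for the difference of effects to 239 without a filter, and 273 for the siRNA to 5 without a filter and 10 without siRNA control replicate 2. Replicate numbers did not pair the libraries, with correlations of deviations from -0.098 to 0.048. With the replicate block the members called were 20 for the inhibitor, 1 for the siRNA and 11 for the difference of effects. Of the 12846 genes tested, 4385, 68 and 1173 were called in that setting, in the same order. Among the tested members, the deposited confidence intervals were widest for ACSL5, TM7SF2 and PMVK. Their medians over the runs reached 42.8%, 42.7% and 38% above the value. The part of depth in the lost calls was not tested.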
